A study of Mus musculus with 20 samples.

Results

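The IL-1 family genes Il1b, Il36g, Il18, Il33, Il1rn, Il1r1, Il1rap, Il1r2, Il1rl1 and Il18r1 were examined by symbol in bulk RNA sequencing of whole mouse knee joints. These 10 genes were chosen on a list drawn up with results of these joints already known. All 10 were found among the 14793 genes of the deposited table. Il36g was known to lie among the genes with the smallest p against control, so its differences from control are given below as a description with no test. For the other 9 members the values known when the list was drawn up are not recorded, so their tests are not independent support for the list.

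The joints came from male C57BL/6Nci mice that were 12 weeks old when the study began and whose medial meniscus was destabilized by surgery, a model of osteoarthritis that all 4 groups shared. Control joints (CTRL) received needle insertion alone with no injected fluid. MSC joints received unactivated mesenchymal stromal cells grown from the adipose tissue of male C57BL/6Nci mice, TLR3-MSC joints such cells activated with the TLR3 agonist pIC, and STING-MSC joints such cells activated with the STING agonist 2′,3′-cGAMP, with injections 3 and 5 weeks after surgery. All cells came from 1 donor pool, so the groups hold no replication of donors. Each group had 5 joints, each from a different mouse, and cartilage, synovium, capsule and subchondral bone were extracted together. The controls do not account for injected fluid, reads of injected cells and of the host cannot be told apart, and the sources used here do not agree on how long after injection the joints were taken. The deposited sample names carry a prefix that is shared within each group and differs between groups, and its meaning is not given. Whatever it stands for cannot be told apart from treatment.

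IL-1β, IL-36γ, IL-18 and IL-33 are the ligands among the members. IL-1β and IL-18 are made as inactive precursors that inflammasome caspases cleave, whereas IL-33 sits in the nucleus of stromal and epithelial cells and is released on damage. Each ligand binds its own receptor chain, which then recruits a partner chain and signals through the adaptor MyD88 to NF-κB. IL-1β binds the receptor encoded by Il1r1, and the accessory chain encoded by Il1rap completes this receptor as well as those for IL-33 and IL-36. The family carries its own brakes. Il1rn encodes the receptor antagonist, which occupies the IL-1 receptor without signalling, and Il1r2 encodes a decoy receptor that binds IL-1β and lacks a signalling domain. In arthritic joints IL-1β is known for driving cartilage breakdown.

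Several members are neighbours in the genome. On chromosome 1 of GRCm39, Il1r2 (40113239 to 40164392), Il1r1 (40264240 to 40356418), Il1rl1 (40468730 to 40504576) and Il18r1 (40504712 to 40540015) lie in a row on the plus strand. Il36g (24076488 to 24083581, plus strand) and Il1rn (24226865 to 24241507, plus strand) lie near each other on chromosome 2, and Il1b (129206490 to 129213060, minus strand) lies farther along it. Il18 is on chromosome 9, Il1rap on chromosome 16 and Il33 on chromosome 19. Il1b, Il1r2, Il1rap, Il18 and Il33 each overlap a gene annotated on the other strand. Whether the counting used strand is not given in the sources used here, so reads of such partners cannot be told apart.

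Of the 10 members, 9 had promoter sequences in RefSeq (GRCm38.p6), and Il36g had none there. The 250 bases before the first listed start are shown for 3 members on which the results below turn: the ligand gene that differed between MSC and activated MSC joints, its antagonist and the decoy receptor. Capitals mark a match to the TATA box, AP-1, C/EBP, PU.1 or NF-kB motif, each searched on both strands over the 300 bases from 250 before to 50 after a start. Il1b is read from the minus strand of chr2:129371140-129371389, Il1rn from the plus strand of chr2:24336610-24336859 and Il1r2 from the plus strand of chr1:40085843-40086092.
Il1b: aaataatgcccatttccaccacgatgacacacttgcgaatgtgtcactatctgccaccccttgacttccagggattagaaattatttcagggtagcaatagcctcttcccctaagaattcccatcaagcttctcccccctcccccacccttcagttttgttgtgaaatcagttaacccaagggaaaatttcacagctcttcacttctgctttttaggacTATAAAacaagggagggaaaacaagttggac
Il1rn: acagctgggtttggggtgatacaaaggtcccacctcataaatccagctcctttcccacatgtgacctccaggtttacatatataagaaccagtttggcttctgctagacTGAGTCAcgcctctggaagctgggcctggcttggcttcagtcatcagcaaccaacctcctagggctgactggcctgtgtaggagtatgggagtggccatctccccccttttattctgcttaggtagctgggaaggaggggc
Il1r2: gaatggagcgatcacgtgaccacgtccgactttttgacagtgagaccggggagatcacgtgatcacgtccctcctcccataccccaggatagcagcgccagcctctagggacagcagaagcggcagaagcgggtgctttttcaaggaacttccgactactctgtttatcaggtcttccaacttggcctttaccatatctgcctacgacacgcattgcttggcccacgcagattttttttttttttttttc
The TATA box letters (TATAAA) in the Il1b window began 31 bases before the start, and 13.6% of the 32851 RefSeq promoters of this length held such letters. The AP-1 letters, spelled TGANTCA, in the Il1rn window began 141 bases before the start, against 7.81% of promoters. Il1rn has further annotated starts, and the windows of its starts 2 and 3, not shown, held no AP-1 letters. The Il1r2 window held none of these letters. The C/EBP letters TTGCNNAA were in 10.8% of all promoters. The PU.1 letters, which are GAGGAA, were in 28.3% and the NF-kB motif in 8.46%. None of these was in the 3 windows shown. A match is a description of letters and no evidence that a factor binds.

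The whole reads recovered from the table ran from 27955496 to 52529973 per joint, and no member was at 0 in any joint. Each member had from 71 to 1891 reads in a joint. Joint tissue markers were present throughout. All 8 chondrocyte, 6 bone and 10 synovial fibroblast markers were above 0 in every joint. Skeletal muscle markers were also abundant, with summed normalized counts from 728105 to 3026496. MSC replicate 5 stood apart, with 296 genes at 0 against 0 to 97 in the other joints.

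Per kilobase of exon, and averaged over all 20 joints, Il36g was the most abundant member at 437 ± 118 normalized counts per kb (SD, n = 20), at or above 80% of all genes. Il1b (267 ± 117) and Il1r2 (263 ± 94.4) came next and did not differ beyond their spread. Il1rn (174 ± 40.6), Il1rl1 (134 ± 29.6), Il1r1 (124 ± 21.5) and Il18 (103 ± 14.7) followed, again with neighbours within their spread. Il18r1 (52.5 ± 13.8), Il33 (42.2 ± 29.7) and the shared subunit Il1rap (26.8 ± 2.93) were lowest. The SD here holds both the groups and the mice within them.

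**Figure D1:**
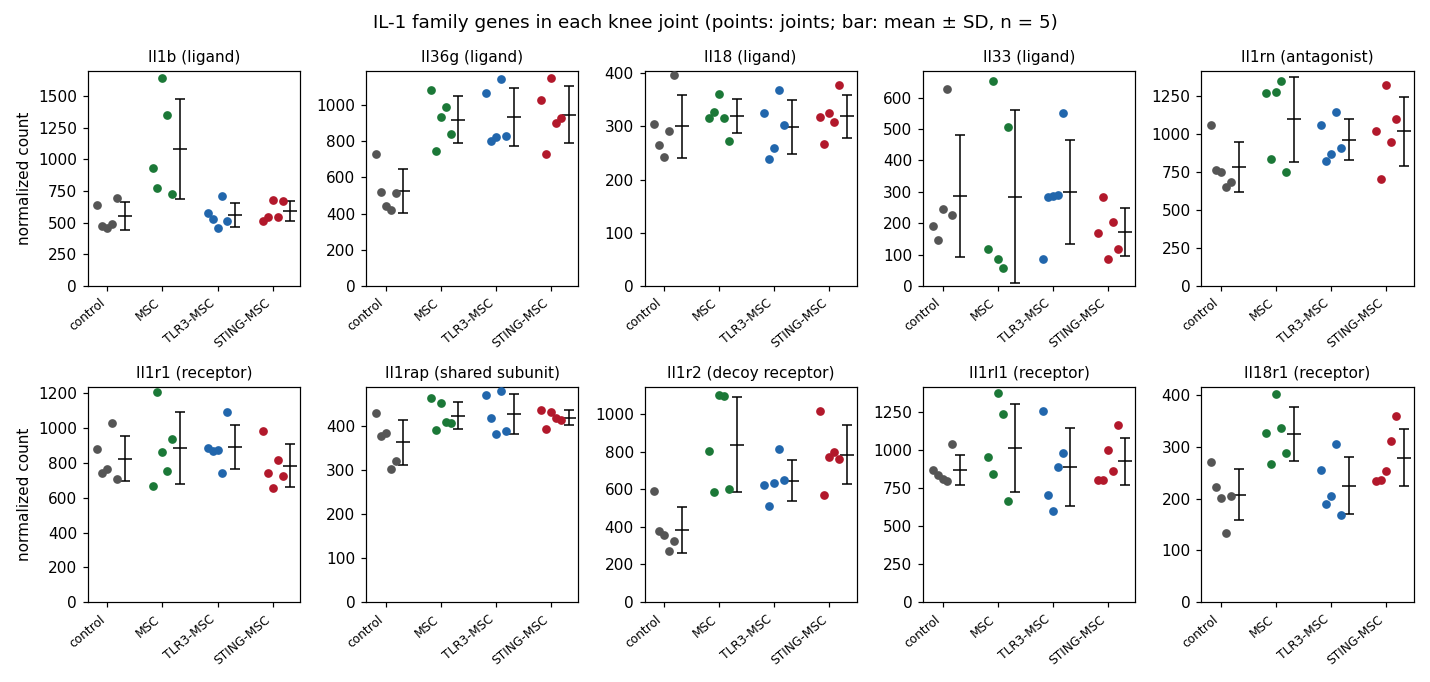
Normalized count (y axis, from 0) of each of the 10 members in each joint of the 4 groups (x axis), with points for joints and bars for the mean ± SD (n = 5). Il1b in the 5 MSC joints (726 to 1639) lies above every other joint, Il36g is higher in treated than in control joints, and Il33 spreads from 58.5 to 654 within the MSC group.

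The ligand gene Il1b was high in the joints given unactivated MSC and in no other group. Its normalized counts in control joints were 640, 471, 456, 487 and 693 for replicates 1 to 5. In MSC joints they were 932, 775, 1639, 1349 and 726. All 5 MSC joints lay above all 5 control joints, and replicates 3 and 4 were the highest of the series. In TLR3-MSC joints the counts were 576, 531, 460, 711 and 509. In STING-MSC joints they were 515, 542, 680, 542 and 673. Both activated groups overlapped the control group, and every joint in them lay below every MSC joint.

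Il1b was therefore higher in MSC than in control joints by 0.93 on the log2 scale (SE 0.20), with a limma FDR of 0.104 over all genes and an exact permutation p of 0.00794, the smallest that 5 joints against 5 allow. STING-MSC joints were lower than MSC joints by a log2 fold change of -0.81 (SE 0.20, limma FDR 0.548), and TLR3-MSC joints by -0.90 (SE 0.20, limma FDR 0.633). The exact two-sided permutation p was 0.00794 in both. The comparisons of MSC joints with control, STING-MSC and TLR3-MSC joints all use the same 5 MSC joints, so they are not independent. With only the 2 groups compared in the fit, the limma FDR of Il1b was 0.71 in MSC against control. It was 0.987 in STING-MSC against MSC and 0.999 in TLR3-MSC against MSC. Groups without any overlap in that direction were seen for 0.737% of genes in MSC above control, 0.548% in STING-MSC below MSC and 0.311% in TLR3-MSC below MSC. Against control, Il1b in TLR3-MSC joints differed by 0.03 on the log2 scale (95% interval -0.39 to 0.44) and in STING-MSC joints by 0.11 (-0.30 to 0.53). The intervals hold changes of either sign.

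Il36g, whose product acts on epithelial and myeloid cells, showed another pattern, with treated joints of all 3 groups above control. Its counts in control joints were 731, 521, 444, 422 and 516. In MSC joints they were 1086, 748, 935, 990 and 842, and in TLR3-MSC joints 1066, 803, 823, 1146 and 831. In STING-MSC joints they were 1027, 729, 1153, 902 and 929. All MSC and TLR3-MSC joints lay above every control joint, as did 4 of the 5 STING-MSC joints, where replicate 2 at 729 was just under control replicate 1 at 731.

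The log2 fold changes of Il36g against control were 0.82 (MSC), 0.84 (TLR3-MSC) and 0.86 (STING-MSC), given with no test because they entered the choice of the gene. TLR3-MSC against MSC differed by 0.02 (95% interval -0.31 to 0.34) and STING-MSC against MSC by 0.04 (-0.29 to 0.36). Neither difference passed the threshold, and the 3 treated groups overlapped throughout.

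Il18 and Il33 passed the threshold in none of the 6 comparisons. Il18 held between 239 and 397 normalized counts in all joints, with group means from 299 ± 51.6 in TLR3-MSC to 319 ± 40.3 in STING-MSC (SD, n = 5). Il33, an alarmin of stromal and endothelial cells, was the most variable member. Its counts in control joints were 192, 145, 246, 627 and 227, and in MSC joints 116, 654, 84.6, 58.5 and 507. In TLR3-MSC joints they were 86, 283, 288, 289 and 552, and in STING-MSC joints 169, 284, 86.6, 205 and 117. The groups overlapped throughout, and the highest STING-MSC joint, at 284, was under the highest joint of each other group. The log2 difference of STING-MSC from control was -0.65 with an SE of 0.62, so a change of this size was not detectable in 5 joints against 5.

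Il1rn, the gene of the receptor antagonist, was higher in MSC joints by the unadjusted threshold only. Its counts were 1058, 762, 750, 649 and 682 in control joints and 1267, 833, 1276, 1348 and 751 in MSC joints. In TLR3-MSC joints they were 1059, 823, 869, 1143 and 905, and in STING-MSC joints 1014, 705, 1322, 943 and 1093. Control replicate 1 stood apart from the other control joints and lay inside the range of all 3 treated groups. The log2 fold change of MSC over control was 0.47 (SE 0.19, limma FDR 0.453), with an exact permutation p of 0.0635. TLR3-MSC and STING-MSC joints differed from control by 0.31 (95% interval -0.08 to 0.70) and 0.37 (-0.02 to 0.76), short of the threshold. The MSC call was lost when control replicate 4 or MSC replicate 1, 3 or 4 was left out (0.38 to 0.59 over all joints left out in turn).

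Set beside Il1b per kilobase of exon, Il1rn was lowest on average in MSC joints. The ratio of Il1rn to Il1b was 0.493 ± 0.0977 (SD, n = 5) in MSC joints, where it ran from 0.366 to 0.639. It was 0.68 ± 0.136 in control, 0.814 ± 0.0691 in TLR3-MSC and 0.806 ± 0.128 in STING-MSC joints. All 5 TLR3-MSC joints, from 0.728 to 0.888, lay above all 5 MSC joints, and the STING-MSC joints overlapped MSC through replicate 2 at 0.611. Control joints overlapped MSC through replicate 4 at 0.627 and replicate 5 at 0.462. The ratio follows from the 2 counts already compared and was not tested.

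Il1r2, the decoy receptor, had the largest log2 difference from control among the receptor members in all 3 treated groups. Its counts in control joints were 592, 378, 359, 270 and 326. In MSC joints they were 802, 585, 1102, 1095 and 600. In TLR3-MSC joints they were 622, 509, 631, 814 and 649, and in STING-MSC joints 1018, 572, 771, 798 and 759. In each treated group 4 of 5 joints lay above every control joint, and the overlap came from control replicate 1 at 592 and replicate 2 of the treated group.

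The log2 fold change of Il1r2 over control was 1.11 in MSC (SE 0.22, limma FDR 0.0647), 0.78 in TLR3-MSC (SE 0.22, limma FDR 1) and 1.05 in STING-MSC joints (SE 0.22, limma FDR 0.208). The exact permutation p was 0.0159 in each. Between treated groups no difference passed. TLR3-MSC against MSC was -0.34 (95% interval -0.79 to 0.11), STING-MSC against MSC -0.06 (-0.52 to 0.39) and STING-MSC against TLR3-MSC 0.27 (-0.18 to 0.72), and these intervals do not show that the groups were alike.

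Il1r1, the signalling receptor for IL-1, passed in no comparison, with means of 824 ± 130 in control, 885 ± 208 in MSC, 893 ± 128 in TLR3-MSC and 785 ± 125 in STING-MSC joints (SD, n = 5). Per kilobase, the ratio of Il1r2 to Il1r1 was 1.28 ± 0.396 in control, 2.73 ± 1.15 in MSC, 2 ± 0.57 in TLR3-MSC and 2.7 ± 0.401 in STING-MSC joints. STING-MSC joints, from 2.08 to 3.18, all lay above the highest control joint at 1.82, while MSC joints ranged from 1.31 to 3.94. These ratios were not tested either.

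**Figure D2:**
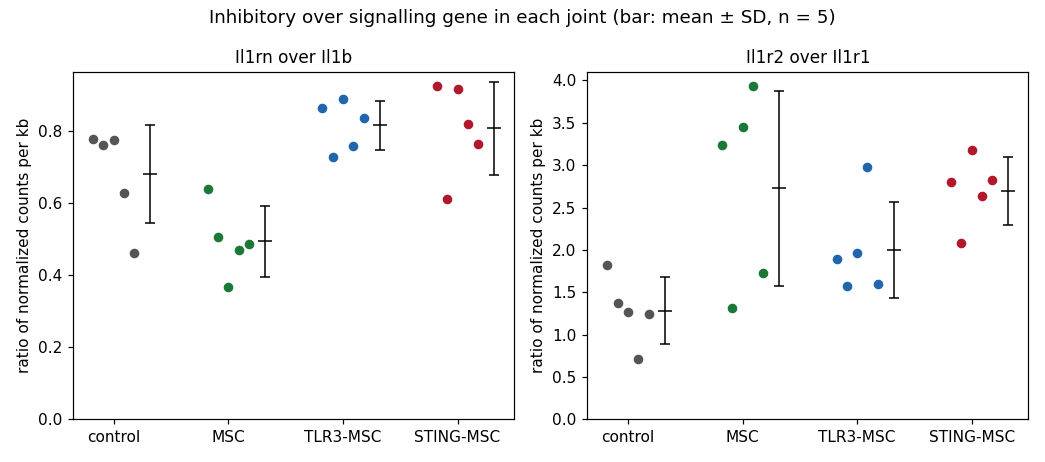
Ratio of normalized counts per kb (y axis, from 0) of Il1rn to Il1b (left) and of Il1r2 to Il1r1 (right) in each joint, with points for joints and bars for the mean ± SD (n = 5). The antagonist-to-ligand ratio is lowest on average in MSC joints (0.493 ± 0.0977), which overlap control joints. The decoy-to-receptor ratio in all 5 STING-MSC joints lies above the control joints.

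Il1rap, the subunit that IL-1, IL-33 and IL-36 receptors share, showed small differences. Its means were 364 ± 51.2 in control, 425 ± 31.5 in MSC, 429 ± 45.6 in TLR3-MSC and 420 ± 17.2 in STING-MSC joints (SD, n = 5). The log2 fold changes over control were 0.23 (SE 0.10, limma FDR 0.516), 0.24 (SE 0.10, limma FDR 1) and 0.22 (SE 0.10, limma FDR 0.391). The exact permutation p was 0.0635, 0.0873 and 0.0476. Each of the 3 missed the unadjusted threshold in a fit of the 2 groups alone. Without control replicate 4 the log2 fold changes were 0.17, 0.18 and 0.15, and without control replicate 5 they were 0.19, 0.20 and 0.18, and each missed it there too.

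Il18r1 encodes the ligand-binding chain of the IL-18 receptor, which natural killer and T cells carry. Its counts were 271, 222, 201, 134 and 205 in control joints and 327, 266, 402, 337 and 287 in MSC joints. In TLR3-MSC joints they were 255, 190, 205, 306 and 168, and in STING-MSC joints 233, 236, 254, 312 and 359. MSC joints were the highest group, with 4 of 5 above every control joint, and TLR3-MSC joints overlapped control widely. MSC over control was 0.67 on the log2 scale (SE 0.19, limma FDR 0.3, exact permutation p 0.0159). TLR3-MSC against MSC was -0.54 (SE 0.19, limma FDR 0.978, exact permutation p 0.0317). STING-MSC over control was 0.45 (SE 0.19, limma FDR 0.378, exact permutation p 0.0635), and it was lost without control replicate 4, STING-MSC replicate 4 or STING-MSC replicate 5 (0.30 to 0.55 with each joint left out in turn).

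Il1rl1 encodes ST2, the IL-33 receptor of mast cells and other immune cells. It passed in none of the comparisons, with means of 869 ± 96.2 in control, 1014 ± 289 in MSC, 887 ± 255 in TLR3-MSC and 926 ± 155 in STING-MSC joints (SD, n = 5). The widest group was MSC, from 665 in replicate 5 to 1375 in replicate 3, and it overlapped all others.

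**Figure D3:**
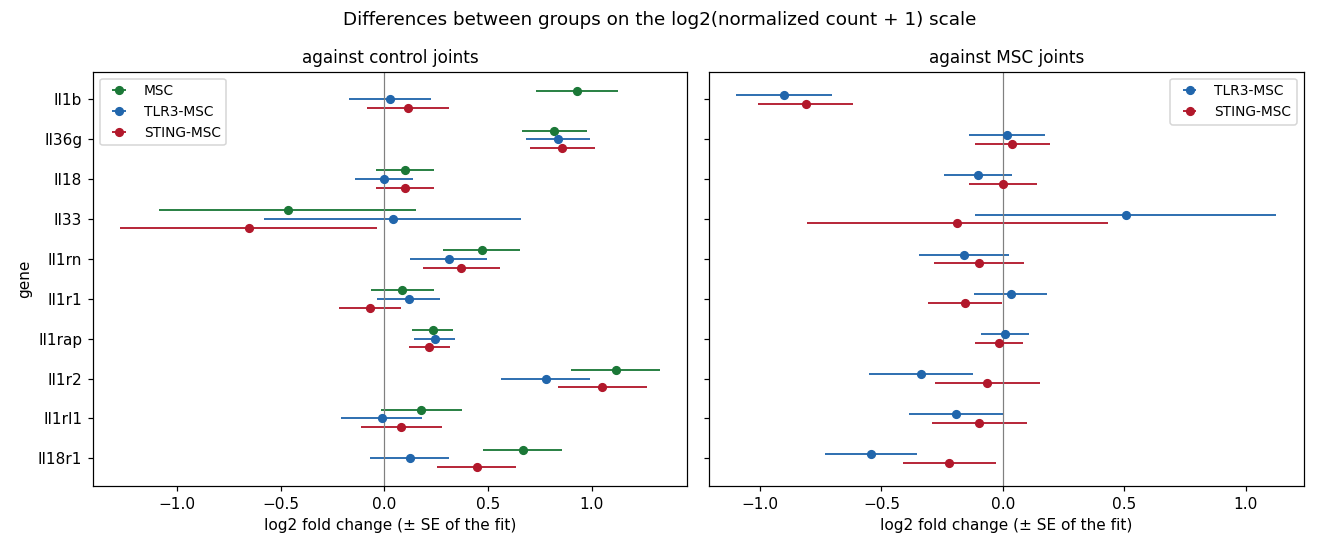
Log2 fold change (x axis, log2(normalized count + 1) scale, with the SE of the limma fit as bars) of each member (y axis) against control joints (left) and against MSC joints (right). Il36g and Il1r2 lie to the right of 0 for all 3 treatments against control. Il1b lies at 0.93 in MSC, 0.03 in TLR3-MSC and 0.11 in STING-MSC joints. Against MSC joints, Il1b lies at -0.90 for TLR3-MSC and -0.81 for STING-MSC.

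Counting members at an unadjusted limma p of at most 0.05, MSC joints had 6 of 10 members higher than control (Il1b, Il36g, Il1rn, Il1rap, Il1r2 and Il18r1) and 0 lower, where 5.64% of all genes were higher and 2.91% lower. TLR3-MSC joints had 3 higher (Il36g, Il1rap and Il1r2) and 0 lower, against 2.68% and 0.906% of genes. STING-MSC joints had 4 higher (Il36g, Il1rap, Il1r2 and Il18r1) and 0 lower, against 6.54% and 5.69%. These 3 comparisons share the control joints, and nothing is read from the shares because the list was drawn up with results known and Il36g was in it for its difference from control. STING-MSC against MSC had 0 higher and 1 lower (Il1b), against 2.77% and 2.17% of genes. TLR3-MSC against MSC had 0 higher and 2 lower (Il1b and Il18r1), against 1.89% and 1.99%. STING-MSC against TLR3-MSC had 0 in either direction by limma, edgeR or DESeq2, against 0.784% and 1.78% of genes by limma.

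The median log2 fold change of the 10 members was 0.351 in MSC against control, where the median of all genes was -0.0362. It was 0.12 for TLR3-MSC (all genes -0.00684) and 0.166 for STING-MSC (all genes 0.00778). Against MSC it was -0.0971 for STING-MSC (all genes 0.022) and -0.132 for TLR3-MSC (all genes 0.0291). Groups without any overlap were Il1b and Il36g in MSC above control, Il36g in TLR3-MSC above control (0.575% of all genes did so), and Il1b in STING-MSC and in TLR3-MSC below MSC. Il36g was listed for its difference from control and is part of the medians. Nothing is therefore read from its lack of overlap with control or from the medians against control.

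No member reached a limma FDR of 0.05, and neither did most genes. The share of all genes that did was 0.00676% in MSC against control (the gene Dhrs9, named after its value was seen) and 0% in each of the other 5 comparisons. Il36g against control is left out of what follows. On whole reads recovered from the table, DESeq2 called Il1b (FDR 0.00162) and Il1r2 (FDR 0.000851) in MSC against control, where it called 0.732% of genes, and edgeR called Il1r2 (FDR 0.0486), where it called 0.101%. In STING-MSC against control DESeq2 called Il1r2 (FDR 0.00877), against 0.576% of genes. Il1b was called by DESeq2 in STING-MSC against MSC (FDR 0.0223, 0.19% of genes) and in TLR3-MSC against MSC (FDR 0.0127, 0.0474% of genes). In these other comparisons edgeR called no member at that FDR.

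Other scalings moved the split of all genes between the directions. In MSC against control 835 genes were higher and 430 lower at the unadjusted limma threshold, and 1014 and 263 after quantile normalization. In STING-MSC against MSC the split was 410 to 321, and 203 to 514 with edgeR. In TLR3-MSC against MSC it was 279 to 295, and 156 to 412 after quantile normalization. In STING-MSC against control it was 967 to 841, and 830 to 1140 with edgeR. In STING-MSC against TLR3-MSC it was 116 to 264, and 68 to 537 with edgeR. The members past the threshold kept their direction under quantile normalization, edgeR and DESeq2.

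Of 11 further family genes listed, 5 were in the table. Il18rap, the partner chain of the IL-18 receptor, was higher in MSC than in control joints (2006 ± 340 against 1517 ± 242, SD, n = 5), with a log2 fold change of 0.40 (SE 0.17, limma FDR 0.51). The other 4 did not pass the threshold in a comparison with control. Sigirr, a receptor that damps IL-1 signalling, was lower in TLR3-MSC than in MSC joints (279 ± 41.4 against 352 ± 49.3), by -0.34 (SE 0.15, limma FDR 0.978). Il1a, the other IL-1 ligand, was near 102 ± 33.7 in control and 118 ± 34.1 in MSC joints, and Il1rl2, the IL-36 receptor chain, had 334 ± 51.4 and 342 ± 50. Il18bp, which neutralizes IL-18, had 412 ± 82.1 and 424 ± 135. None of these 3 passed in any comparison.

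Of 18 genes that process the ligands, all in the table, 5 were higher and 0 lower in MSC than in control joints, where 5.64% of all genes were higher, and 13 did not pass. Nlrp1a, an inflammasome sensor, was at 0.63 on the log2 scale, the pyrin gene Mefv at 0.53, the sensor Nlrp3 at 0.44 and the adaptor Pycard at 0.32. Nlrc4, another sensor, was at 0.40. In TLR3-MSC joints 1 was higher than control (Nlrp3, 0.40) and 1 lower (the channel gene Panx1, -0.24), against 2.68% and 0.906% of all genes. In STING-MSC joints 7 were higher and 1 lower, where 6.54% and 5.69% of all genes were. The higher genes were Nlrp1a (0.71), Gsdmd, Nlrc4, Mefv, Prtn3, Nlrp3 and Elane, and the lower was Panx1 (-0.27). Elane is also among the neutrophil markers described below, so these lists overlap. Here and in the next 2 lists, genes outside the naming rule were named after their values were seen. Against MSC joints, STING-MSC had 0 in either direction by limma, and TLR3-MSC had 1 lower, Txnip at -0.24, where 1.99% of all genes were lower. The median of the list was 0.194 in MSC, 0.102 in TLR3-MSC and 0.18 in STING-MSC against control.

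Of 28 genes of receptor signalling, 8 were higher and 1 lower in MSC than in control joints, where 5.64% and 2.91% of all genes were. Peli1, an E3 ligase of the pathway, was at 0.29 and Nfkbia, the NF-κB inhibitor that NF-κB itself induces, at 0.36. Zc3h12a, an RNase that degrades cytokine transcripts, was also at 0.36. Tab1, a partner of the kinase TAK1, was the lower gene at -0.28. TLR3-MSC had 3 higher than control (Irak4, Irak3 and Peli1) and STING-MSC 2 (Mapk14 and Ikbkb), and limma called 0 lower in each. Of all genes, 2.68% and 6.54% were higher there, so the STING-MSC count was near the share of all genes. The same inhibitor Nfkbia was lower than in MSC joints after STING-MSC (-0.34) and TLR3-MSC (-0.37), as was Peli1 (-0.17 and -0.15), and Tab1 was higher (0.37 and 0.31). In all, STING-MSC had 2 higher (Tab1 and Tab2) and 3 lower (Nfkbia, Peli1 and Nfkb2) than MSC, against 2.77% and 2.17% of all genes. TLR3-MSC had 1 higher and 3 lower, which included Ikbkb at -0.18, against 1.89% and 1.99%. These 2 comparisons share the MSC joints.

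Of 24 listed genes that IL-1 is known to induce, 20 were in the table. In MSC against control joints 2 were higher, Lcn2 at 0.52 and the neutrophil chemokine Cxcl5 at 0.66, and 0 were lower, against 5.64% and 2.91% of all genes, and the list's median was -0.0891. In TLR3-MSC against control, and in STING-MSC and TLR3-MSC against MSC, limma called 0 in either direction, with medians of 0.0834, -0.13 and 0.12. In STING-MSC against control 1 was higher, Lcn2, and 3 were lower, against 6.54% and 5.69% of all genes. These 3 were the proteinase genes Mmp13 (-0.88, SE 0.35, limma FDR 0.368), Mmp3 (-1.77, SE 0.75, limma FDR 0.377) and Adamts4 (-1.79, SE 0.72, limma FDR 0.368), which act on cartilage matrix. The other proteinase genes of the list, Adamts5 (-0.06) and Mmp9 (0.09), did not pass there. The list median in STING-MSC against control was -0.122, from -2.01 to 0.595. In STING-MSC against TLR3-MSC joints limma called 0 higher and 1 lower, Tnfaip6 (-2.25, SE 1.00, limma FDR 0.89), with a list median of -0.301. Of all genes, 0.784% were higher and 1.78% lower there. Summed synovial fibroblast markers were also low in STING-MSC joints, with counts of 170817 to 401342 in STING-MSC and 389935 to 1420802 in control joints, and their part in these values was not tested.

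Several markers of other cells also passed the unadjusted threshold against control. All 12 neutrophil markers were in the table and none was at 0. Their summed normalized count ran from 402229 to 718794 in control joints (median 494308), from 576329 to 980385 in MSC (833452), from 539380 to 833823 in TLR3-MSC (638787) and from 575198 to 896811 in STING-MSC joints (767342). By limma 9 of 12 were higher than control in MSC, 3 in TLR3-MSC and 10 in STING-MSC joints, against 5.64%, 2.68% and 6.54% of all genes. The list medians were 0.564, 0.285 and 0.506 on the log2 scale. Cxcr2, a neutrophil chemokine receptor, was at 0.85, 0.60 and 0.74. In bulk tissue, more cells of a type and more RNA per cell cannot be told apart, and the part of these cells in the higher Il36g, Il1r2 and Il1rn counts was not tested. Subchondral bone was extracted with the other tissues, so marker RNA from bone marrow and from the rest of the joint cannot be told apart either.

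STING-MSC and MSC joints differed by a median of -0.0257 over the 12 markers, with 0 called by limma, while Il1b differed by -0.81. For TLR3-MSC against MSC all 12 markers lay below 0 (-0.319 to -0.184, median -0.239), the direction of Il1b at -0.90, with 0 called. The part of neutrophils in the Il1b difference was not tested. Of 10 macrophage and monocyte markers, 2 were higher than control in MSC joints (Lyz2 and Ly6c2), 3 in STING-MSC joints (these and Ccr2) and, by limma, 0 in TLR3-MSC joints. Of all genes, 5.64%, 6.54% and 2.68% were higher there, and the list medians were 0.0645, 0.14 and 0.155.

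Keratinocyte markers were checked because IL-36γ and IL-33 are made in skin. Of 10, 9 were in the table, and Krt5, Krt14, Krt1, Lor and Dsg1a were each at 0 in at least 1 joint. Their sum was 8855 in control replicate 1 and 26517 in TLR3-MSC replicate 4, and from 528 to 2193 in the other 18 joints. Il36g in STING-MSC joints, whose keratinocyte sum was 553 to 604, had a mean of 948 ± 157, and in TLR3-MSC joints 934 ± 160 (SD, n = 5). Krt5 (-5.01), Lor (-3.95) and Krt10 (-2.39) were lower in STING-MSC than in TLR3-MSC joints by limma, where 1.78% of all genes were lower. The part of keratinocytes in the Il36g and Il33 values was not tested.

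**Figure D4:**
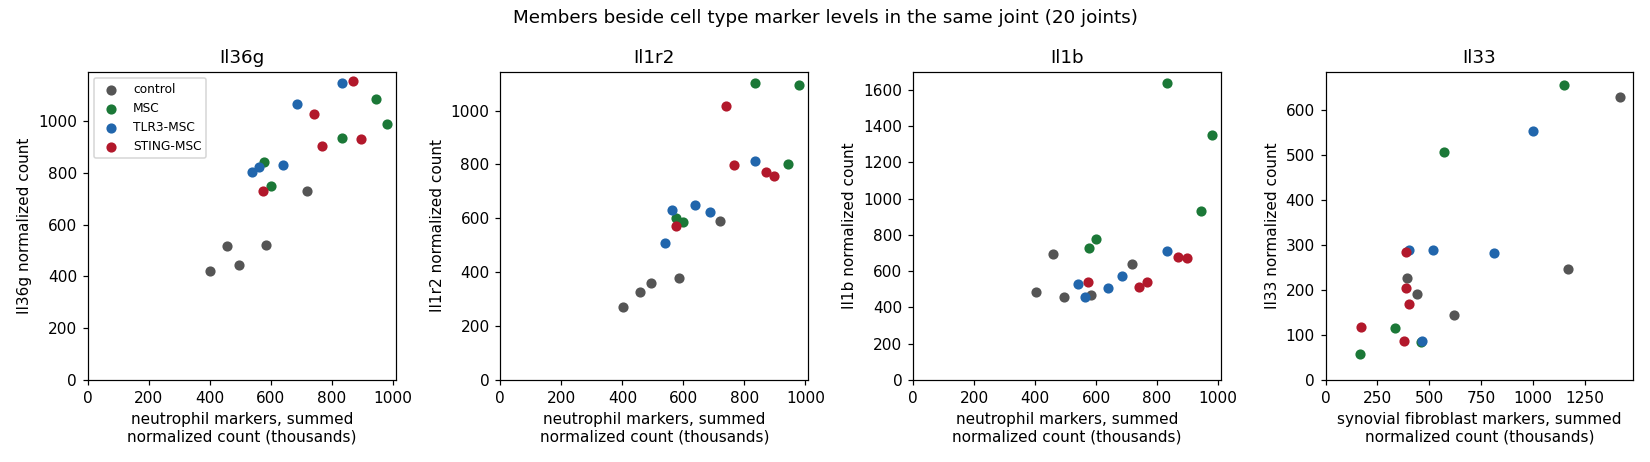
Normalized count (y axes, from 0) of Il36g, Il1r2 and Il1b against the summed normalized count of 12 neutrophil markers, and of Il33 against that of 10 synovial fibroblast markers (x axes, scaled as their labels say), with 1 point per joint, coloured by group. Il36g and Il1r2 tend to be higher at higher neutrophil sums, with exceptions such as Il1r2 at 1018 in STING-MSC replicate 1, and Il33 tends to be higher where the synovial fibroblast sum is higher. The 5 MSC joints are the highest in the Il1b panel, and MSC replicates 1 and 4 have neutrophil sums above every joint of the other groups.

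Correlations between members were taken over the 20 joints after subtracting group means. All 28 pairs among Il1b, Il36g, Il18, Il1rn, Il1rap, Il1r2, Il1rl1 and Il18r1 had Pearson correlations above 0, from 0.12 to 0.86, and the highest was between Il1rn and Il36g. Il33 was below 0 with all 8 of them (-0.77 to -0.27), as was Il1r1 (-0.53 to -0.14), and these genes had 0.65 with each other. The points share libraries and tissue make-up, so these values are descriptions without a p.

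For each marker list, the log2 values of the markers were averaged after subtracting group means, without markers at 0 in any joint. This mean differs from the summed counts given above. The neutrophil markers had correlations of 0.94 with Il1rn, 0.86 with Il36g, 0.83 with Il1r2, 0.78 with Il18r1, 0.73 with Il1rap and 0.65 with Il1b. They had -0.77 with Il33 and -0.55 with Il1r1. The synovial fibroblast markers had 0.82 with Il33 and 0.69 with Il1r1, and -0.69 with Il1b. Endothelial markers had 0.73 with Il33 and 0.57 with Il1r1, and -0.81 with Il1rn, -0.78 with Il36g, -0.78 with Il18r1 and -0.77 with Il1r2. T and NK cell markers had 0.68 with Il1rn and 0.63 with Il1rap, and -0.65 with Il33. Il1rl1, the gene of ST2, had -0.34 with mast cell markers and 0.59 with neutrophil markers. Keratinocyte markers had 0.55 with Il36g and 0.04 with Il33. These rest on Krt10, Dsp, Sfn and Trp63 only, because Krt5, Krt14, Krt1, Lor and Dsg1a were at 0 in a joint. Over the same joints the genes most like Il36g were Trim30b (0.921), Zfp268 (0.920), Slco4c1 (0.906), Slfn2 (0.897) and the neutrophil receptor Cxcr2 (0.897). Those most like Il1b were Stk17b (0.896), Gpr132 (0.886), Sik1 (0.875), Cpsf4 (0.862) and Dnajb1 (0.857).

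**Figure D5:**
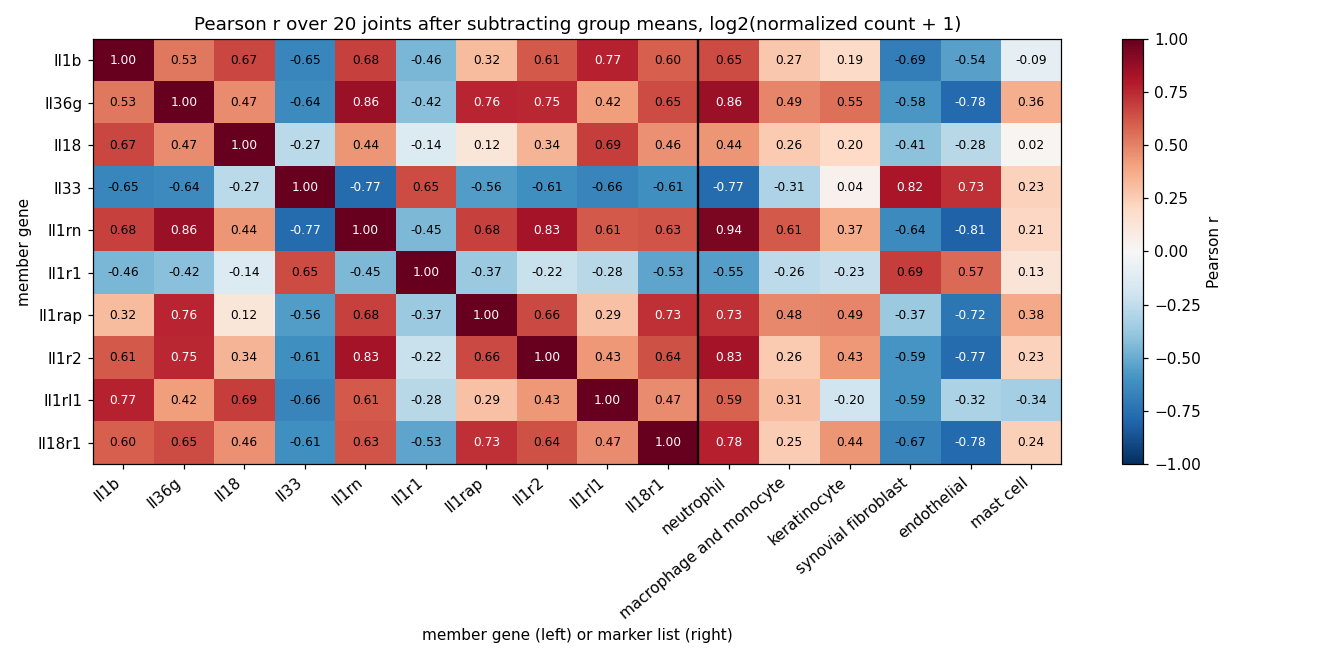
Pearson correlation over 20 joints, after subtracting group means, of each member (y axis) with every other member and with 6 cell type marker lists (x axis), from -1 in blue to 1 in red. A block of 8 members is red among itself and with neutrophil markers (up to 0.94 for Il1rn), while Il33 and Il1r1 are blue with that block and red with synovial fibroblast and endothelial markers.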

How the data were processed

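Polyadenylated RNA of 20 mouse knee joints was sequenced, and groups came from the treatment labels. The authors aligned reads to GRCm39 with STAR 2.7.3a, counted them per gene with HTSeq and named DESeq2. The deposited values are a signal: gene counts divided by a median-ratio size factor per joint. Between 99.8% and 99.9% of values were whole multiples of 1 read (tolerance 0.1), which gives the depth. A low-count filter by the authors is not given in the sources used here, and the lowest mean in the table was 9.4.

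All genes were fitted with limma 3.58.1 (R 4.3.3, trend option) on log2(normalized count + 1), with 4 groups and no block, because the values are normalized. A call is an unadjusted p of at most 0.05, and FDR is by Benjamini-Hochberg over all genes. No further filter was used. For single genes an exact permutation test, two-sided, was added (SciPy 1.17.1, 252 splits, smallest p 0.00794). edgeR 4.0.16 (TMM) and DESeq2 1.42.0 on recovered reads were alternatives, with other pseudocounts (0.5 and 5), a minimum mean of 20, 2-group fits, quantile normalization, a replicate block and fits that leave out 1 joint. The scripts were tested on simulated data. Levels per kb used GENCODE exon lengths.

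The members and lists were chosen with earlier results of these data known. Named genes were all members and family genes, up to 4 genes with the smallest p per pathway list in MSC against control and in either activated group against MSC, and the 5 genes most correlated with Il36g and with Il1b.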

Additional observations from a re-analysis of the deposited data

Results flagged for a closer look

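Of 40 groups of 5 joints (each member in each group), 3 held a joint whose gap to its nearest neighbour exceeded 0.71 of the range of the group, Dixon's 95% limit, and chance alone gives about 1 in 20. Il1rn was 1058 in control replicate 1, where the next control joint was 762 (gap of 0.723 of the range). Il33 was 627 in control replicate 4, where the next was 246 (0.79). Il1rl1 was 1036 in control replicate 5, where the next was 865 (0.722).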

How the results depend on the processing

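Leaving out Il36g against control, 13 member comparisons past the unadjusted threshold were refitted 234 times in all. Of these, 208 kept direction and threshold, 26 kept the direction and missed the threshold, and 0 reversed. All refits of Il1b and Il1r2, and of Il18r1 in MSC against control and in TLR3-MSC against MSC, passed. The misses were of Il1rap against control (5 of MSC, 6 of TLR3-MSC and 8 of STING-MSC), Il1rn in MSC against control (4) and Il18r1 in STING-MSC against control (3). With each joint left out in turn, the count of members past the threshold, Il36g included, ranged from 4 to 6 in MSC against control, from 2 to 4 in TLR3-MSC against control and from 2 to 5 in STING-MSC against control. The value of 2 in STING-MSC came without control replicate 4, STING-MSC replicate 4 or STING-MSC replicate 5. In STING-MSC against TLR3-MSC the count ranged from 0 to 1, and the 1 was Il18r1 without TLR3-MSC replicate 4. STING-MSC and TLR3-MSC against MSC kept 1 and 2. The cause of the misses was not tested. Same-numbered joints came from different mice, and their deviations correlated by -0.144 to 0.108 on average, with single pairs from -0.658 to 0.464. Differently numbered joints were not compared, so these values cannot show whether same-numbered joints shared a batch. With a replicate block the counts were 6, 3 and 5 in MSC, TLR3-MSC and STING-MSC against control, 1 and 2 for STING-MSC and TLR3-MSC against MSC, and 0 for STING-MSC against TLR3-MSC. FDR moved with the tool: in MSC against control limma called 0.00676% of genes, edgeR 0.101% and DESeq2 0.732%. With 5 joints a group, changes of the size of the spread of Il33 were not detectable.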

Other observations

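Markers of cells that were not described above were called by limma at an unadjusted p of at most 0.05 as follows, all named after their values were seen. Of all genes, 2.68% were higher and 0.906% lower in TLR3-MSC against control, and 6.54% and 5.69% in STING-MSC against control. In STING-MSC against MSC 2.77% were higher, and in TLR3-MSC against MSC 1.99% were lower. For STING-MSC against TLR3-MSC, 0.784% were higher and 1.78% lower. Of 8 mast cell markers, the cells best known for ST2, the chymase genes Cma1 (1.14 on the log2 scale, SE 0.52) and Mcpt4 (1.12, SE 0.52) were higher in TLR3-MSC than in control joints, and Fcer1a was higher in STING-MSC joints (0.49, SE 0.21). The list medians were 0.188 in TLR3-MSC (from -0.108 to 1.15) and 0.416 in STING-MSC joints (from 0.175 to 1.07). Of 6 endothelial markers, Cdh5 (-0.62, SE 0.20), Kdr (-0.43, SE 0.14) and Pecam1 (-0.48, SE 0.18) were lower in STING-MSC than in control joints, where 5.69% of all genes were, and Kdr was lower in TLR3-MSC joints (-0.32, SE 0.14). Of 5 adipocyte markers, Plin1 was higher in TLR3-MSC joints (1.04, SE 0.49). Of 6 bone markers, the osteoclast proteinase gene Ctsk was lower in STING-MSC than in control joints (-0.78, SE 0.36). The list median was -0.217, from -0.775 to 0.374. In STING-MSC against control, the synovial fibroblast markers Col3a1 (-2.05, SE 0.77) and Pdgfrb (-0.52, SE 0.24) were lower, and in TLR3-MSC against control Clic5 (0.76, SE 0.35) and Pi16 (0.46, SE 0.22) were higher. Other markers of this list went the other way in each. The list median was -0.627 in STING-MSC (from -2.05 to 0.555) and 0.0699 in TLR3-MSC joints (from -0.679 to 0.762). In TLR3-MSC against MSC, Vwf was lower (-0.36, SE 0.14). In STING-MSC against TLR3-MSC, the endothelial marker Vwf (0.29, SE 0.14) and the mast cell marker Gata2 (0.28, SE 0.13) were higher and Ctsk was lower (-0.86, SE 0.36). Other markers of these lists went the other way. The list medians there were -0.105 for endothelial (from -0.261 to 0.295), 0.213 for mast cell (from -0.275 to 0.354) and -0.245 for bone markers (from -0.861 to 0.485). Of the macrophage and monocyte markers, Ccr2 was higher in STING-MSC than in MSC joints (0.37, SE 0.18), with a list median of 0.00988. Limma called none of the chondrocyte, skeletal muscle or T and NK cell markers in any comparison.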
